A study of Macaca mulatta with 102 samples.

Results

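T cells from blood of rhesus macaques given belatacept and sirolimus were compared with T cells from macaques given tacrolimus and methotrexate, both at day 14 after a transplant of haematopoietic cells. The tested arrays carry the group label Bela.Siro.D14 (animals R.38, R.42 and R.49) and the arrays they were set against carry the label Tac.Mtx.D14 (animals R.21, R.20 and R.19). These 6 arrays, 3 for each regimen and 1 for each animal, are all those with these labels among the 102 arrays of the series. All 6 lie in the batch labelled 3, which also holds 13 arrays of healthy macaques without a transplant, 1 of them from R.49. The series followed recipients of allogeneic or autologous transplants, and the drug regimens served to prevent graft-versus-host disease, in which donor T cells attack the tissues of the recipient. CD3-positive T cells were sorted by flow cytometry, so blood T cells were measured and tissues were not. Strain, sex, age, conditioning, drug levels, disease grade and whether the sorted cells came from donor or recipient are not given in the sources used here.

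The drugs act on separate steps of T cell activation. Belatacept is a fusion protein that binds CD80 and CD86 on other cells and so withholds the costimulatory signal that a T cell receives through CD28. Sirolimus inhibits the kinase complex mTORC1, which links growth factor and nutrient signals to protein synthesis and division. Tacrolimus inhibits calcineurin, the phosphatase that lets NFAT transcription factors enter the nucleus after the T cell receptor is engaged, and methotrexate is an antifolate that blocks nucleotide synthesis in dividing cells. Each group received a pair of drugs, so the effects of the drugs within a pair cannot be told apart. Transplanted animals differ from healthy ones in many other ways, so a comparison with healthy animals covers the transplant and the drugs together.

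The values are log2 expression values, on which 1 unit is a doubling. A gene was represented by 1 probe set, and 10718 genes and 31710 probe sets were tested with limma and Benjamini-Hochberg adjustment at a threshold of 0.05. Array medians were 5.25, 5.32 and 5.23 in Bela.Siro.D14, against 5.15, 5.17 and 5.16 in Tac.Mtx.D14. The log2 ratio of 3-prime to 5-prime actin probe sets, which is higher where RNA is more degraded, was 0.412 in R.38, 0.669 in R.42 and 1.64 in R.49, against 0.703, 0.696 and 0.72 in the Tac.Mtx.D14 arrays. Healthy arrays of the batch ran from 0.411 to 1.77 with a median of 1.1, so R.49 stood apart from the other day-14 arrays but within the healthy range. Across probe sets the arrays correlated at 0.954 to 0.964 within Bela.Siro.D14, at 0.96 to 0.972 within Tac.Mtx.D14 and at 0.949 to 0.971 between the groups. Nothing in the labels says how the arrays of a group depend on each other beyond the animal, and p-values of the fit rest on the spread within groups pooled over all 16 groups of the series.

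No gene changed at day 14 by this test. Of 31710 probe sets 0 passed (0%), the smallest adjusted p was 0.137, and 4824 (15.2%) had an unadjusted p under 0.05. Among genes 1716 (16%) had an unadjusted p under 0.05, of which 1168 were higher in Bela.Siro.D14 (10.9% of genes) and 548 lower (5.11%). The arrays of the groups did not overlap in 2133 genes (19.9%), with 1385 genes entirely higher in Bela.Siro.D14 (12.9%) and 748 entirely lower (6.98%). A fit on the 6 arrays alone also called 0 probe sets. In that fit 933 genes had an unadjusted p under 0.05, 490 higher and 443 lower. A miss of the threshold does not show that the regimens act alike, and the intervals bound the differences instead. The 95% interval of the difference lay within 1 log2 unit on either side of 0 for 9053 genes (84.5%). Differences of at least 1 unit were estimated for 142 genes, 29 higher and 113 lower in Bela.Siro.D14.

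The largest differences that did not overlap between the groups, at an unadjusted p under 0.01, included NFIL3, SOCS3 and PCDH8 on the higher side and PPBP, PF4, FCRL3 and TP63 on the lower side. Such non-overlapping genes numbered 411 on the higher side (3.83%) and 123 on the lower side (1.15%), and the 12 with the largest difference on each side are described here as values, with no call. Their adjusted p-values from limma lay between 0.137 and 0.184. The direction is fixed by how they were chosen and lends no support.

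NFIL3, a transcription factor of lymphocyte development, had values of 9.99, 9.84 and 8.63 in Bela.Siro.D14, against 7.95, 8.03 and 7.46 in Tac.Mtx.D14. Healthy arrays of the batch ran from 6.95 to 8.85, so Tac.Mtx.D14 lay within the healthy range and R.38 and R.42 above it. The difference was 1.68 log2 units with a 95% interval of 0.47 to 2.89. SOCS3, a feedback inhibitor of cytokine signalling through STAT3, measured 6.31, 6.40 and 5.27 in Bela.Siro.D14, against 4.96, 4.90 and 4.42 in Tac.Mtx.D14. All 3 Bela.Siro.D14 arrays exceeded the highest healthy array of 4.96, and the difference was 1.23 (interval 0.46 to 2.01). HBEGF, a ligand of the epidermal growth factor receptor, had 5.90, 6.43 and 6.40 in Bela.Siro.D14, against 5.29, 5.07 and 5.31 in Tac.Mtx.D14.

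HK3, a hexokinase of blood cells, measured 7.17, 7.45 and 8.67 in Bela.Siro.D14, against 6.57, 6.71 and 6.65 in Tac.Mtx.D14. Array R.49 was the highest, and without it the difference of 1.12 became 0.67. CA10, a relative of carbonic anhydrases that lacks their enzyme activity, had 9.32, 9.69 and 9.91 in Bela.Siro.D14, against 8.61, 8.26 and 8.27 in Tac.Mtx.D14, a difference of 1.26. PCDH8, a cell adhesion protein of the protocadherin family, had low values of 4.26, 3.27 and 4.02 in Bela.Siro.D14, against 3.06, 2.55 and 2.91 in Tac.Mtx.D14. Every Bela.Siro.D14 array lay above 2.36 to 2.76, the range of the healthy arrays of the batch, and 2 of the 3 Tac.Mtx.D14 arrays did as well. Healthy arrays of all batches had a mean of 2.81, above that range. Tac.Mtx.D14 did not pass against healthy animals (limma, difference 0.29, adjusted p 0.647). CFB, the complement factor B, differed by 0.80, and IFT27, a protein of ciliary transport, by 1.21. The other probe set of each of these genes differed by -0.23 for CFB and -0.01 for IFT27. The other genes on this side were PCBD1 (1.08), an enzyme of tetrahydrobiopterin recycling, RHEX (0.94), an adaptor of erythropoietin receptor signalling, GKAP1 (0.82), an anchoring protein of cGMP-dependent kinase, and PAEP (0.78), the secreted protein glycodelin. For 8 of the 12 genes the mean of Bela.Siro.D14 exceeded every healthy array of the batch, and for 10 of the 12 the mean of Tac.Mtx.D14 lay within the healthy range.

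On the lower side, FCRL3, an Fc receptor-like protein of lymphocytes, had values of 4.22, 3.92 and 4.26 in Bela.Siro.D14, against 6.08, 6.78 and 6.63 in Tac.Mtx.D14. The healthy arrays ran from 4.88 to 6.57, so all 3 Bela.Siro.D14 arrays lay below every healthy array, and the array of R.49 taken when healthy had 6.34. The difference was -2.36 with an interval of -3.46 to -1.26, while the other FCRL3 probe set differed by -0.17. TP63, a transcription factor of the p53 family, measured 5.67, 5.49 and 5.40 in Bela.Siro.D14, against 6.82, 8.54 and 7.24 in Tac.Mtx.D14. Here the Tac.Mtx.D14 arrays were all above the highest healthy array of 6.60, and the difference was -2.01 (interval -2.92 to -1.10). The second TP63 probe set disagreed, with a difference of 0.25. CD160, a receptor of cytotoxic lymphocytes, had 6.40, 5.50 and 5.52 in Bela.Siro.D14, against 7.82, 7.07 and 7.83 in Tac.Mtx.D14, with both groups inside the healthy range of 5.29 to 8.04.

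CMPK2, a mitochondrial nucleotide kinase induced by interferon, had 4.78, 5.76 and 5.58 in Bela.Siro.D14, against 8.08, 7.05 and 6.81 in Tac.Mtx.D14. The highest healthy array of the batch had 5.759. All 3 Tac.Mtx.D14 arrays stood above it, and R.42 of Bela.Siro.D14, at 5.764, lay just past it. IFIT1B, of the family of interferon-induced IFIT proteins, had 6.72, 6.89 and 6.46 in Bela.Siro.D14, against 11.73, 7.34 and 7.58 in Tac.Mtx.D14. Array R.21 alone was far from the others, and without it the difference of -2.19 became -0.77. EYA4, a phosphatase and transcriptional coactivator, differed by -2.30 (5.32, 5.47 and 5.90 in Bela.Siro.D14, against 8.49, 7.21 and 7.87 in Tac.Mtx.D14). IGF2BP3, an mRNA-binding protein typical of fetal tissue, differed by -1.72. Its 4 probe sets were all lower in Bela.Siro.D14.

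The remaining 5 of the 12 lower genes are known from platelets. PPBP, the precursor of a platelet chemokine, had 6.98, 8.21 and 8.00 in Bela.Siro.D14, against 10.22, 11.82 and 11.79 in Tac.Mtx.D14, a difference of -3.55 (interval -6.16 to -0.93). PF4, platelet factor 4, had 7.70, 8.03 and 9.84 in Bela.Siro.D14, against 10.26, 12.09 and 12.63 in Tac.Mtx.D14. NRGN, a calmodulin-binding protein found in neurons and platelets, MMRN1, the adhesive protein multimerin of platelets and endothelium, and CLEC1B, a platelet activation receptor, differed by -1.74, -1.70 and -1.54. The healthy arrays spanned 6.26 to 10.84 for PPBP and 8.01 to 11.38 for PF4, so these genes also varied widely among sorted healthy samples. In bulk samples such as these, fewer cells of a type and less RNA per cell cannot be told apart.

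**Figure D1:**
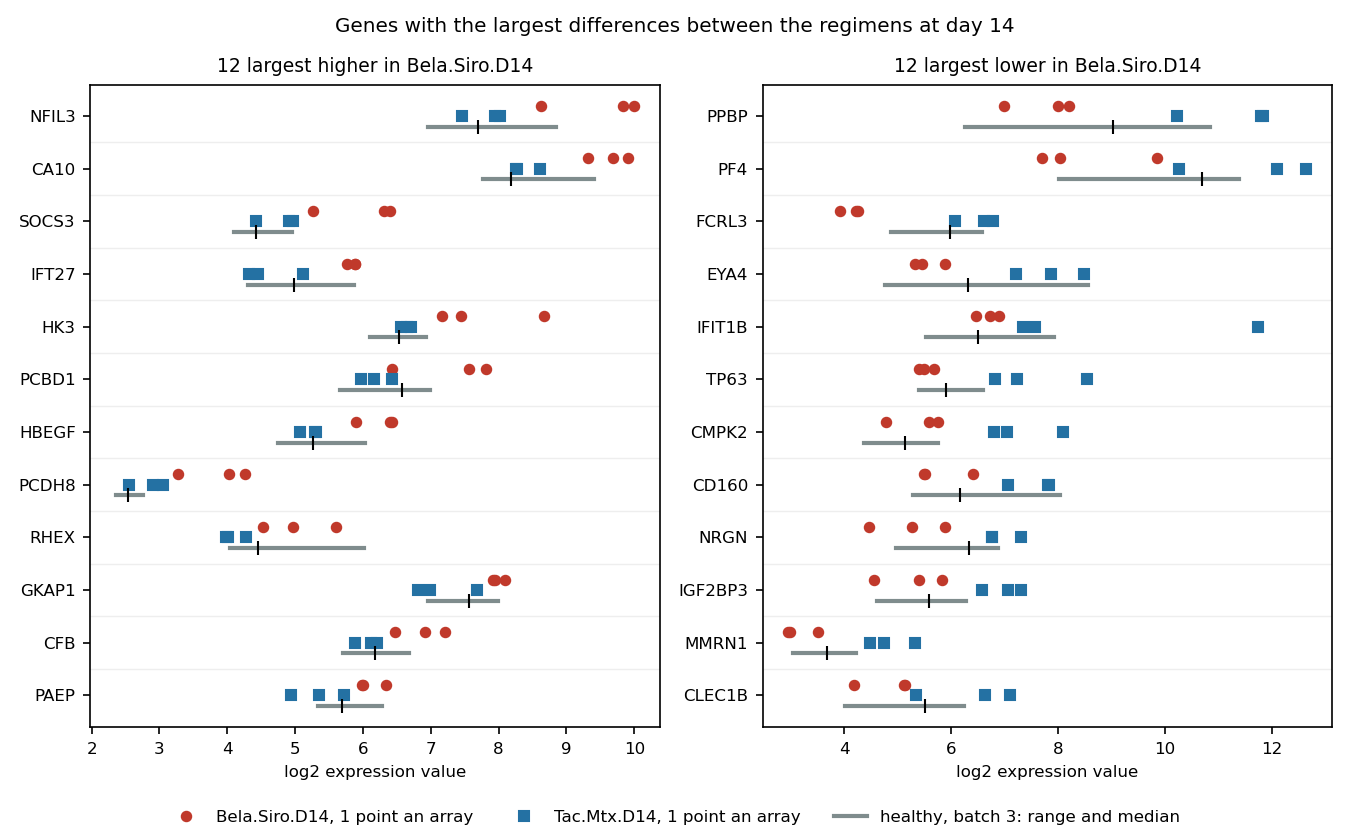
Log2 expression value of the 24 genes with the largest non-overlapping differences, with 1 point for each of the 3 Bela.Siro.D14 arrays (red circles) and the 3 Tac.Mtx.D14 arrays (blue squares). Grey bars give the range of the 13 healthy arrays of batch 3 and black ticks their median. For 8 of the 12 higher genes the Bela.Siro.D14 mean lies above the healthy range, and for 9 of the 12 lower genes the Tac.Mtx.D14 mean does.

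Where each gene stood relative to healthy animals differed between the sides. For 9 of the 12 lower genes the mean of Tac.Mtx.D14 exceeded every healthy array of the batch, and for 11 of the 12 the mean of Bela.Siro.D14 lay within the healthy range, with FCRL3 below it. These are positions of means, and the tests against healthy animals are given further on.

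The steps that the drugs act on were examined through gene lists from textbook knowledge, chosen with earlier results of these data known. The 38 lists held 528 measured genes, of which 0 passed the limma test. Counts of members at an unadjusted p under 0.05 stand beside 10.9% of all genes higher and 5.11% lower at that level. For members that did not overlap, the shares of all genes were 12.9% higher and 6.98% lower. In the CD28 and costimulation list 24 of 30 genes were measured, and the median difference was -0.10, against 0.02 over all genes. At an unadjusted p under 0.05, 3 members were lower in Bela.Siro.D14 and 0 higher. CD28 itself, the receptor whose ligands belatacept occupies, had 6.07, 6.32 and 7.33 in Bela.Siro.D14, against 7.32, 7.58 and 7.30 in Tac.Mtx.D14. Arrays R.38 and R.42 were low, also against the healthy range of 6.37 to 7.58, while R.49 lay with the Tac.Mtx.D14 arrays. The difference was -0.83 (interval -1.59 to -0.06, adjusted p 0.289). All 3 CD28 probe sets were lower, but their differences ran from -0.83 to -0.09. BTLA, an inhibitory receptor, had 6.76, 7.57 and 7.68 in Bela.Siro.D14, against 7.91, 8.20 and 8.47 in Tac.Mtx.D14. CD40LG, the ligand through which helper T cells activate other cells, differed by -0.71 and did not overlap either. BTLA and CD40LG were singled out after their values were seen. ICOS, a costimulatory receptor, and CTLA4, the inhibitory receptor that competes with CD28, differed by -0.47 (interval -1.14 to 0.20) and -0.12 (interval -1.09 to 0.86).

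In the calcineurin-NFAT list 21 of 30 genes were measured, with a median difference of 0.07. At the unadjusted level 2 members were higher and 2 lower. IFNG, the gene of interferon gamma and a known target of NFAT, had 6.31, 5.89 and 6.67 in Bela.Siro.D14, against 4.70, 5.63 and 4.95 in Tac.Mtx.D14. The groups did not overlap, both lay inside the healthy range of 4.31 to 6.87, and the interval of the difference of 1.20 ran from -0.31 to 2.71 (adjusted p 0.452). LAG3, an inhibitory receptor of activated T cells, had 7.27, 8.79 and 10.44 in Bela.Siro.D14, against 7.78, 9.14 and 7.70 in Tac.Mtx.D14, with wide overlap. Outside the list, IL2RA and FOXP3, which mark activated and regulatory T cells, differed by -0.04 (interval -0.63 to 0.54) and -0.05 (interval -0.44 to 0.33). TNFRSF4, the costimulatory receptor OX40, had 8.14, 8.66 and 9.03 in Bela.Siro.D14, against 8.85, 8.86 and 8.34 in Tac.Mtx.D14. Every one of these 6 values exceeded the highest healthy array of 7.99, and the difference was -0.07 (interval -0.60 to 0.46).

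For folate and nucleotide synthesis, the process that methotrexate blocks, 20 of 30 genes were measured. Their median difference was -0.01, with 2 members higher and 1 lower at the unadjusted level, against 10.9% and 5.11% of all genes. TYMS, the thymidylate synthase gene, spanned both extremes within Tac.Mtx.D14, with 5.86, 5.57 and 6.53 in Bela.Siro.D14, against 7.08, 8.06 and 4.04 in Tac.Mtx.D14. The list of mTORC1, translation and ATF4 target genes had 18 measured members and a median of 0.07. At the unadjusted level 3 members were higher and 0 lower, beside the same shares of all genes, 10.9% and 5.11%. The 3 members were ATF5, a transcription factor of the amino acid response (0.37), SLC7A5 and GPT2. SLC7A5, a transporter of large amino acids, and GPT2, a mitochondrial transaminase, did not overlap between the groups and differed by 0.69 and 0.84. ASNS, asparagine synthetase, did not overlap in the other direction and differed by -1.12. These 4 genes were singled out after their values were seen. Of 29 cytosolic ribosomal protein genes, 24 had a positive difference, with a median of 0.11 and a largest value of 0.65 for RPS16. The medians of glycolysis (0.02), oxidative phosphorylation (0.01), ribosome biogenesis (0.05), proteasome (-0.08) and sterol synthesis genes (-0.05) were close to that of all genes.

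**Figure D2:**
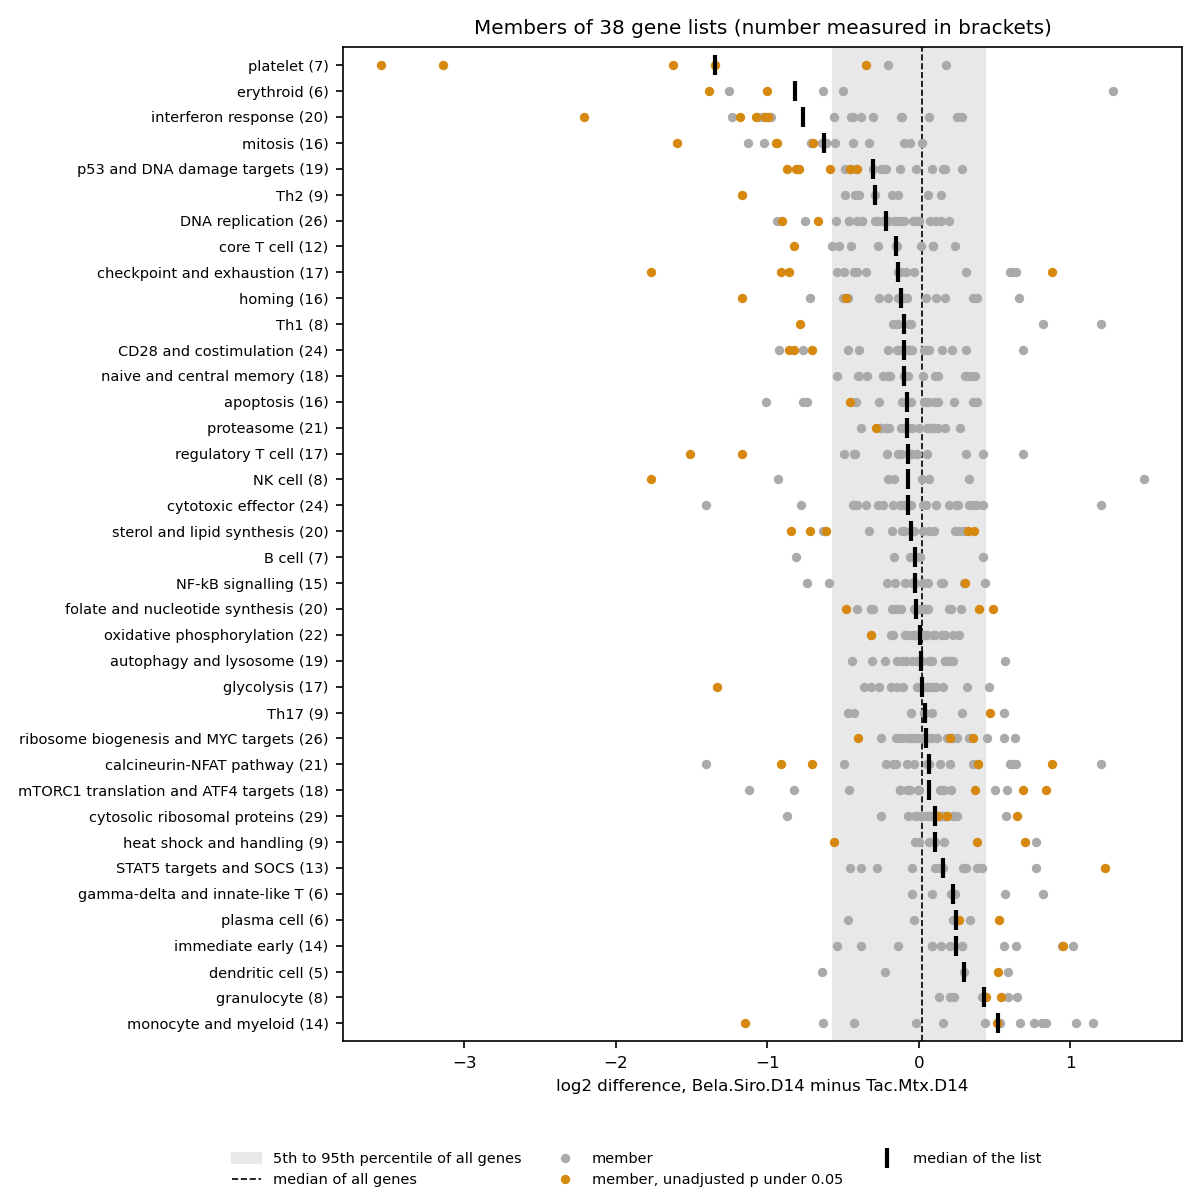
Log2 difference between Bela.Siro.D14 and Tac.Mtx.D14 for each measured member of the 38 gene lists, with 1 point a gene, orange where the unadjusted p was under 0.05. Black ticks mark list medians, which run from -1.34 for platelet genes to 0.53 for monocyte and myeloid genes (-0.05 without R.42), and the grey band spans the 5th to 95th percentile of all genes, -0.56 to 0.44.

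Genes of cell division were lower in Bela.Siro.D14 than in 2 of the 3 Tac.Mtx.D14 arrays, and no member passed the test. In the mitosis list 16 of 30 genes were measured, 15 had a negative difference, against 46.9% of all genes, and the median was -0.62. At the unadjusted level 4 were lower and 0 higher, against 5.11% and 10.9% of all genes. Only 1 of the 16, CCNB1, did not overlap between the groups, which is near the 6.98% of all genes entirely lower. CCNB2, the cyclin B2 gene, had 5.70, 6.01 and 6.14 in Bela.Siro.D14, against 7.75, 8.90 and 5.99 in Tac.Mtx.D14. MKI67, the proliferation marker Ki-67, had 6.49, 6.21 and 7.44 in Bela.Siro.D14, against 7.67, 8.53 and 6.07 in Tac.Mtx.D14. The differences of the 3 MKI67 probe sets ran from -0.71 to -0.006. In both genes R.21 and R.20 were high while R.19, of the same regimen, lay with the Bela.Siro.D14 arrays or below them. The mean level of the list relative to the healthy median was 0.19, 0.03 and 0.48 in Bela.Siro.D14, against 1.03, 1.63 and -0.03 in Tac.Mtx.D14, with healthy arrays from -0.22 to 0.66. The list median was -1.08 without R.19 and -0.24 without R.20. The list of DNA replication genes, with 26 measured genes and a median of -0.22, was likewise highest in R.20 and R.21 and lowest in R.19. Its median was -0.61 without R.19 and 0.03 without R.20.

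Genes induced by interferon were mostly lower in Bela.Siro.D14, with no member past the threshold. Of 20 measured genes 17 had a negative difference, against 46.9% of all genes, and the median was -0.77, or -0.48 without R.20. On the lower side 8 did not overlap between the groups, where 6.98% of all genes did not, and 1 on the higher side. At the unadjusted level 5 were lower and 0 higher. IFIT1, an antiviral RNA-binding protein, had 7.33, 5.37 and 5.20 in Bela.Siro.D14, against 8.66, 7.84 and 8.04 in Tac.Mtx.D14. MX1, an antiviral GTPase, had 8.11, 8.12 and 8.28 in Bela.Siro.D14, against 8.35, 10.28 and 9.57 in Tac.Mtx.D14. EPSTI1, an interferon-induced protein of epithelium and stroma, had 6.94, 6.92 and 6.83 in Bela.Siro.D14, against 6.98, 8.81 and 7.84 in Tac.Mtx.D14. These 3 were singled out after their values were seen. The mean level of the list was 0.25, 0.05 and 0.24 in Bela.Siro.D14, against 0.48, 1.18 and 0.91 in Tac.Mtx.D14, where healthy arrays ran from -0.39 to 0.48. The Bela.Siro.D14 arrays lay inside the healthy range, R.21 at its upper edge, and R.20 and R.19 above it. IRF7, OAS1 and IFITM1, of the same list, differed by -0.11, 0.28 and 0.07.

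Of 19 measured target genes of p53 and DNA damage, 15 had a negative difference, against 46.9% of all genes, with a median of -0.30. The median was -0.12 without R.49 and -0.50 without R.38. At the unadjusted level 6 were lower and 0 higher, against 5.11% and 10.9% of all genes. MDM2, the ubiquitin ligase that restrains p53, had 6.66, 6.52 and 5.98 in Bela.Siro.D14, against 6.92, 6.98 and 7.85 in Tac.Mtx.D14. DDB2, a DNA damage sensor, had 9.12, 8.38 and 8.33 in Bela.Siro.D14, against 8.83, 9.27 and 9.48 in Tac.Mtx.D14, with R.38 among the Tac.Mtx.D14 arrays. The mean level of the list was 0.48, 0.13 and -0.16 in Bela.Siro.D14, against 0.25, 0.54 and 0.56 in Tac.Mtx.D14, so the groups overlapped through R.38. MDM2 was singled out after its values were seen, and 1 of its 4 probe sets had a positive difference.

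Effector and memory genes showed no common shift. The cytotoxic effector list (24 measured) had a median of -0.07 with 0 members at the unadjusted level. GZMB, the protease granzyme B, had 13.95, 11.49 and 13.58 in Bela.Siro.D14, against 13.04, 13.01 and 12.18 in Tac.Mtx.D14. R.42 was the lowest of the 6 arrays, and it also had the lowest level of the whole list, at -1.54, where healthy arrays ran from -0.82 to 0.81. Without R.42 the list median became 0.62. CD8A differed by -0.15 (interval -0.58 to 0.29), CD4 by 0.24 (interval -0.30 to 0.78) and CCR7, the receptor that guides naive and memory T cells to lymph nodes, by -0.09 (interval -1.10 to 0.91). The naive and central memory list had a median of -0.09 with 0 members at the unadjusted level. In the regulatory T cell list (17 measured, median -0.07), 2 members were lower at that level. They were IKZF2, the transcription factor Helios, with 4.33, 3.63 and 4.45 in Bela.Siro.D14, against 5.81, 5.08 and 6.05 in Tac.Mtx.D14, and CCR4, a chemokine receptor of skin homing, which overlapped and differed by -1.16. IKZF2 and CCR4 were singled out after their values were seen.

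**Figure D3:**
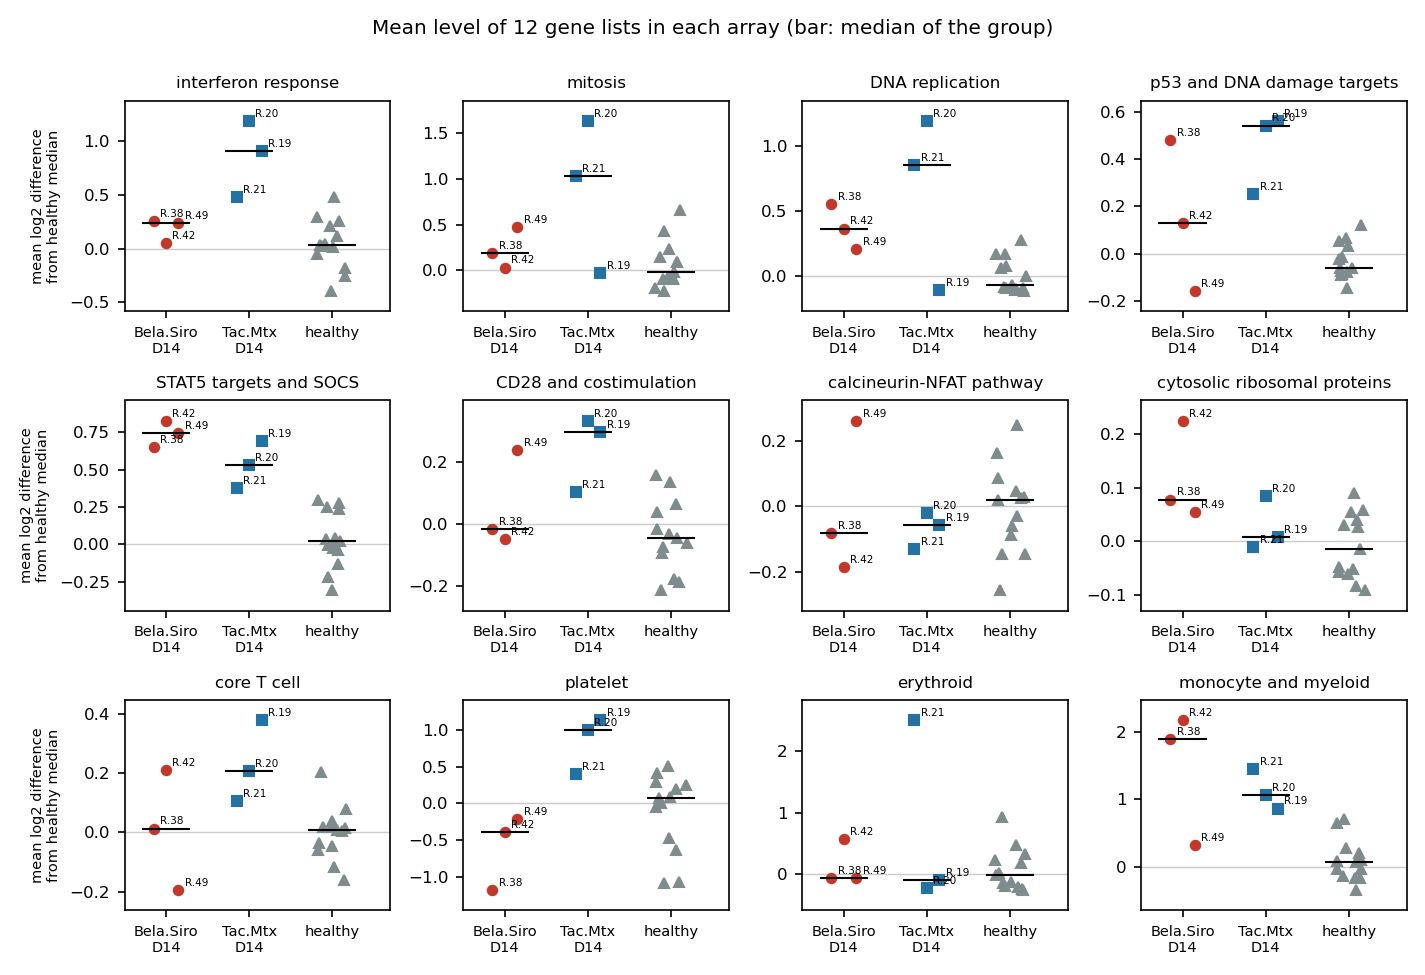
Mean level of 12 gene lists in each array, as the mean log2 difference of the members from the median of the healthy arrays of batch 3, with Bela.Siro.D14 on the left, Tac.Mtx.D14 in the middle, the 13 healthy arrays on the right and bars at the group medians. Levels of interferon and platelet genes do not overlap between the regimens, R.19 lies with the Bela.Siro.D14 arrays in mitosis genes, and R.21 stands alone in erythroid genes.

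Levels of markers of other blood cells differed between single arrays, and those of platelet and plasma cell lists did not overlap between the regimens. Of 20 core T cell markers 12 were measured, without the CD3 subunit genes, and their levels varied. ZAP70, a kinase of the T cell receptor, lay between 12.04 and 12.49 in the 6 arrays. CD8A had means of 12.38 in Bela.Siro.D14 and 12.52 in Tac.Mtx.D14. The means were lower for CD4 (7.07 and 6.82) and CD28 (6.57 and 7.40). The core T cell list differed by a median of -0.15. Of 7 measured platelet markers 5 were lower in Bela.Siro.D14 at the unadjusted level and did not overlap, against 5.11% of all genes lower at that level and 6.98% entirely lower. The list median was -1.34, or -0.85 without R.38, and the list level was -1.17, -0.39 and -0.21 in Bela.Siro.D14, against 0.40, 1.00 and 1.12 in Tac.Mtx.D14, with healthy arrays from -1.07 to 0.50. ITGA2B and TUBB1, also platelet genes, differed by 0.18 and -0.20. The erythroid list stood apart in R.21 alone, where AHSP, a chaperone of alpha haemoglobin, had 8.00 against 3.58 to 3.82 in the other 5 arrays. Its list median of -0.82 became 0.14 without R.21. The array with high IFIT1B is also R.21, and whether erythroid RNA has a part in that value was not tested. The part of platelet RNA in the platelet genes named above was not tested either.

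The mean level of the myeloid list was above the healthy range of the batch in 5 of the 6 arrays. It was 1.90, 2.17 and 0.32 in Bela.Siro.D14, against 1.45, 1.06 and 0.86 in Tac.Mtx.D14. Healthy arrays ran from -0.34 to 0.71. This mean does not give the level of every marker. The median of the members against all healthy arrays was 0.48 in Bela.Siro.D14 and 0.59 in Tac.Mtx.D14. Of the 14 measured members 4 rose against healthy animals in Bela.Siro.D14 and 0 in Tac.Mtx.D14, against 2.31% and 1.07% of all genes. S100A9, a calcium-binding protein of monocytes and neutrophils, had 11.84, 12.96 and 7.59 in Bela.Siro.D14, against 10.48, 9.63 and 8.83 in Tac.Mtx.D14, where the highest healthy array had 7.27. Of 14 measured myeloid markers 1 was higher and 1 lower in Bela.Siro.D14 at the unadjusted level, and their median of 0.53 turned to -0.05 without R.42. The 8 measured granulocyte markers all had positive differences, with a median of 0.43, or 0.22 without R.42, and 2 at the unadjusted level, MPO and ELANE. Their list level was 0.53, 1.06 and -0.05 in Bela.Siro.D14, against 0.46, -0.06 and -0.07 in Tac.Mtx.D14. R.38 and R.42, which were highest in myeloid markers, were also highest in NFIL3 and SOCS3, and the part of myeloid RNA in those values was not tested. The array of R.49 had the lowest myeloid level, with SOCS3 at 5.27, above the healthy range, and NFIL3 at 8.63, within it. Without R.49 the differences of NFIL3 and SOCS3 were 2.10 and 1.60. The 6 measured plasma cell markers had a median of 0.25, with 2 higher at the unadjusted level, against 10.9% of all genes. Of these markers 3 were entirely higher and 1 entirely lower, against 12.9% and 6.98% of all genes. Their level ran from 0.06 to 0.15 in Bela.Siro.D14, against -0.12 to 0.05 in Tac.Mtx.D14, with healthy arrays from -0.21 to 0.31. B cell and dendritic cell lists had medians of -0.03 and 0.30.

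Against healthy animals each regimen differed by many genes. The healthy group of these tests held all 46 healthy arrays of the series (45 animals, 6 batches), not only the 13 of batch 3. These comparisons share their healthy arrays, so their values are set side by side and nothing is read from their agreement. Bela.Siro.D14 differed from healthy animals in 849 probe sets (2.68%), 520 higher (1.64%) and 329 lower (1.04%), and 6545 (20.6%) had an unadjusted p under 0.05. These gave 330 genes (3.08%), 248 higher (2.31%) and 82 lower (0.765%). Tac.Mtx.D14 differed in 279 probe sets (0.88%), 242 higher (0.763%) and 37 lower (0.117%), and 4561 (14.4%) had an unadjusted p under 0.05. These gave 126 genes (1.18%), 115 higher (1.07%) and 11 lower (0.103%). In a fit on batch 3 alone, 760 probe sets passed for Bela.Siro.D14 and 228 for Tac.Mtx.D14. The counts rest on few arrays: for Bela.Siro.D14 they were 562, 71 and 527 probe sets without R.38, R.42 and R.49, and for Tac.Mtx.D14 they were 89 and 106 without R.21 and R.20. With estimated array weights the counts were 447 for Bela.Siro.D14 and 1305 for Tac.Mtx.D14, so which regimen had more calls depended on that setting.

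In the p53 list 5 of 19 measured genes rose against healthy animals in Bela.Siro.D14 and 5 in Tac.Mtx.D14. Of all genes 2.31% rose in Bela.Siro.D14 and 1.07% in Tac.Mtx.D14. BAX, a trigger of apoptosis, rose by 0.94 in Bela.Siro.D14 and by 1.36 in Tac.Mtx.D14. ZMAT3, an RNA-binding p53 target, rose by 1.01 in Bela.Siro.D14 and by 1.80 in Tac.Mtx.D14. DDB2 and BBC3 rose by 0.59 and 0.57 in Bela.Siro.D14, and by 1.17 and 1.02 in Tac.Mtx.D14. The direct differences between the regimens for these genes did not pass the test, as for BAX with -0.42 (interval -0.91 to 0.07, adjusted p 0.413). TNFRSF4 rose by 1.04 in Bela.Siro.D14 and by 1.11 in Tac.Mtx.D14, and ENTPD1, the ectonucleotidase CD39 of regulatory and exhausted T cells, rose by 1.58 in Bela.Siro.D14 and by 1.27 in Tac.Mtx.D14. MYB, a transcription factor of progenitor and memory cells, rose by 1.74 in Bela.Siro.D14 and by 2.08 in Tac.Mtx.D14.

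Of 13 measured STAT5 targets and SOCS genes, 4 rose in Bela.Siro.D14 against healthy animals and 0 passed in Tac.Mtx.D14. The shares of all genes that rose were 2.31% and 1.07%. SOCS2, a feedback inhibitor of cytokine receptors, rose by 2.66 in Bela.Siro.D14, and its difference in Tac.Mtx.D14 was 1.89 with an adjusted p of 0.1. SOCS3 rose by 1.55 in Bela.Siro.D14 and differed by 0.32 in Tac.Mtx.D14 (adjusted p 0.66). PIM1, a kinase gene induced by cytokines, and BCL2, which protects from apoptosis, rose by 1.04 and 0.83 in Bela.Siro.D14, against differences of 0.75 and 0.45 in Tac.Mtx.D14. LAG3 rose by 1.57 in Bela.Siro.D14, against 0.94 in Tac.Mtx.D14 (adjusted p 0.23). FCRL3 and IKZF2 fell by 1.67 and 1.31 in Bela.Siro.D14. In the interferon list 2 of 20 measured genes rose in Tac.Mtx.D14, EPSTI1 by 1.53 and the RNA sensor IFIH1 by 0.76. In Bela.Siro.D14 0 of them passed, beside the same shares of all genes. Among the 24 genes with the largest differences, 7 passed against healthy animals in Bela.Siro.D14 (NFIL3, CA10, SOCS3, HK3, PCDH8, CFB and FCRL3) and 3 in Tac.Mtx.D14 (IFIT1B, TP63 and CMPK2). PCDH8 was below the filter value of 5.21 in every day-14 array of both regimens. It was kept mostly through later Bela.Siro arrays. A gene past the threshold in 1 regimen is not thereby shown to differ between the regimens, and the direct test called none. Of these genes the calls of NFIL3, CFB, FCRL3, HK3, CA10, SOCS3, PCDH8, LAG3 and TNFRSF4 in Bela.Siro.D14, and those of IFIT1B, TP63 and CMPK2 in Tac.Mtx.D14, were each lost when at least 1 array was left out. The calls of SOCS2, PIM1, BCL2, IKZF2, ENTPD1, MYB, BAX, ZMAT3, DDB2, BBC3, EPSTI1 and IFIH1 were not checked in this way.

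The same regimens were also sampled later, as Bela.Siro.F (7 animals, days 26 to 105) and Tac.Mtx.F (3 animals, days 26 to 67), all in batch 3, which include the 6 animals of day 14. The late arrays are other samples, but the animals recur, so they are not independent animals. Late, 675 probe sets (2.13%) differed, 282 higher (0.889%) and 393 lower (1.24%) in Bela.Siro.F, and 6244 (19.7%) had an unadjusted p under 0.05. These gave 190 genes (1.77%), 46 higher (0.429%) and 144 lower (1.34%). Leaving out 1 late array gave 63, 119 and 202 probe sets without R.20, R.19 and R.21 of Tac.Mtx.F, and 1069, 271, 293 and 331 without R.49, R.68, R.66 and R.70 of Bela.Siro.F. Of the 190 genes 170 (89.5%) had the same sign at day 14, against 64.7% of all genes. All 24 genes with the largest day-14 differences had the same sign late, and 4 of them passed the late test: PCDH8, FCRL3, TP63 and CD160. PCDH8 passed the filter on low values mostly through Bela.Siro arrays after day 14, so its late call is not independent of that filter.

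FCRL3 ran from 3.60 to 4.97 with a median of 4.32 in Bela.Siro.F, against 6.41, 7.17 and 5.79 in Tac.Mtx.F for R.21, R.20 and R.19. The late difference was -2.24 (adjusted p 0.00567), beside -2.36 at day 14. TP63 ran from 4.81 to 6.43 in Bela.Siro.F, against 7.34, 8.31 and 7.76 in Tac.Mtx.F, with a late difference of -2.13 (adjusted p 0.00128). CD160 ran from 5.24 to 6.17 in Bela.Siro.F, against 7.30, 7.63 and 9.24 in Tac.Mtx.F. Its late difference between the regimens was -2.37 (limma, adjusted p 0.00741). No array of Bela.Siro.F reached an array of Tac.Mtx.F in these genes. The call of FCRL3 was lost without R.20 (adjusted p 0.106) and that of CD160 without R.19 (adjusted p 0.13). The differences at day 14 and late did not themselves differ by the test (adjusted p 0.972 for FCRL3, 0.968 for TP63 and 0.837 for CD160).

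The cytotoxic effector list, with 0 calls at day 14, had 5 of 24 measured genes lower in Bela.Siro.F late, against 1.34% of all genes. They were CCL5, SLAMF7, GZMH, NKG7 and CTSW, lower by 2.65, 2.27, 1.97, 1.65 and 1.45. Whether the list itself differed between the times was not tested, and none of its genes passed the test of the difference. The platelet genes had small late differences, -0.48 for PPBP and -0.12 for PF4, and the interferon list had a late median of -0.43 with 0 calls.

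**Figure D4:**
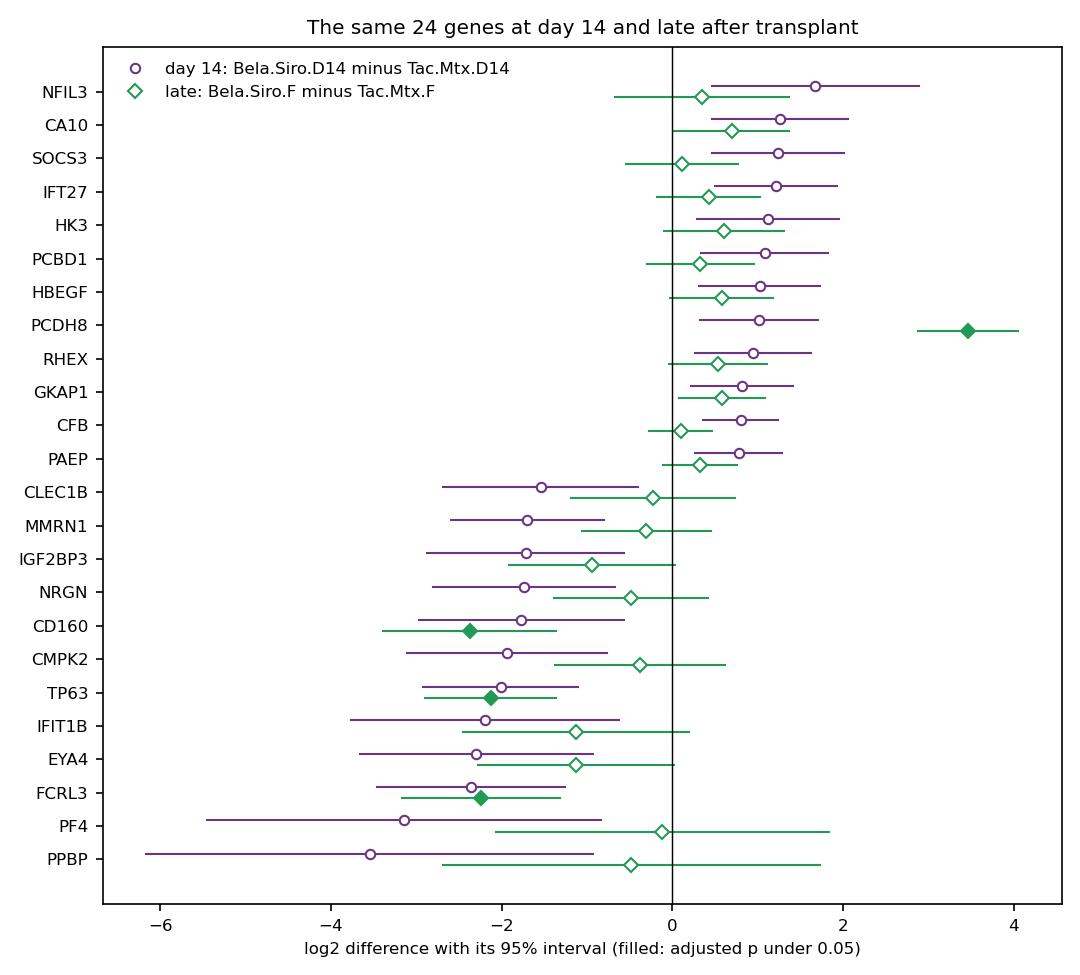
Log2 difference with its 95% interval for the 24 genes with the largest day-14 differences, at day 14 (purple circles, Bela.Siro.D14 minus Tac.Mtx.D14) and late (green diamonds, Bela.Siro.F minus Tac.Mtx.F), filled where the adjusted p was under 0.05. All 24 have the same sign at both times, and PCDH8, FCRL3, TP63 and CD160 passed late. PCDH8 was kept by the filter on low values mostly through Bela.Siro arrays after day 14.

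PCDH8 was the only probe set of 31710 whose difference between the regimens changed between day 14 and later (0.00315%, or 0.00933% of genes), while 2459 (7.75%) had an unadjusted p under 0.05. At day 14 the difference was 1.01, and late it was 3.47 (interval 2.88 to 4.05, adjusted p 6.3e-15). In Bela.Siro.F it ran from 4.87 to 7.41 with a median of 6.56, against 3.51, 2.64 and 2.54 in Tac.Mtx.F. R.38 had 4.26 at day 14, 6.88 at day 30 and 7.22 at day 64, R.42 had 3.27, 5.96 and 6.69 at days 14, 30 and 33, and R.49 had 4.02 at day 14 and 6.29 at day 29. The array of R.49 taken when healthy had 2.54. Tac.Mtx animals stayed between 2.54 and 3.51 at both times. The day-14 difference minus the late one was -2.46 (interval -3.36 to -1.55, adjusted p 0.0209). Within the 6 animals sampled at both times, the day-14 value minus the late value was -2.97 in R.38, -3.42 in R.42 and -2.27 in R.49, against -0.45, -0.10 and 0.37 in R.21, R.20 and R.19. This within-animal comparison, added after seeing the data, called 0 probe sets in limma, and 1634 had an unadjusted p under 0.05. The changes in PCDH8 differed by -2.82 between the regimens (interval -3.63 to -2.01), with an adjusted p of 0.83. That was also the smallest adjusted p of all probe sets in this comparison, and PCDH8 had been picked from these same arrays. PCDH8 reached the filter value of 5.21 in 9 of 101 arrays, among them the day-30 Bela.Siro arrays and every Bela.Siro.F array but R.68 (4.87). No Bela.Siro.D14, Tac.Mtx.D14 or Tac.Mtx.F array reached it. The probe set was thus kept mostly through arrays of the regimen where it is high, and the test is not independent of that filter. Its values in Tac.Mtx and healthy animals are near the low end of the scale and were not shown to be above background. In a fit on these 4 groups alone, on batch 3 alone or on transplanted animals alone, 0 probe sets passed. The same held in 7 of the 16 fits that left out 1 array, namely without R.42, R.21 or R.19 of day 14 and without R.38, R.67, R.20 or R.19 of the late arrays.

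**Figure D5:**
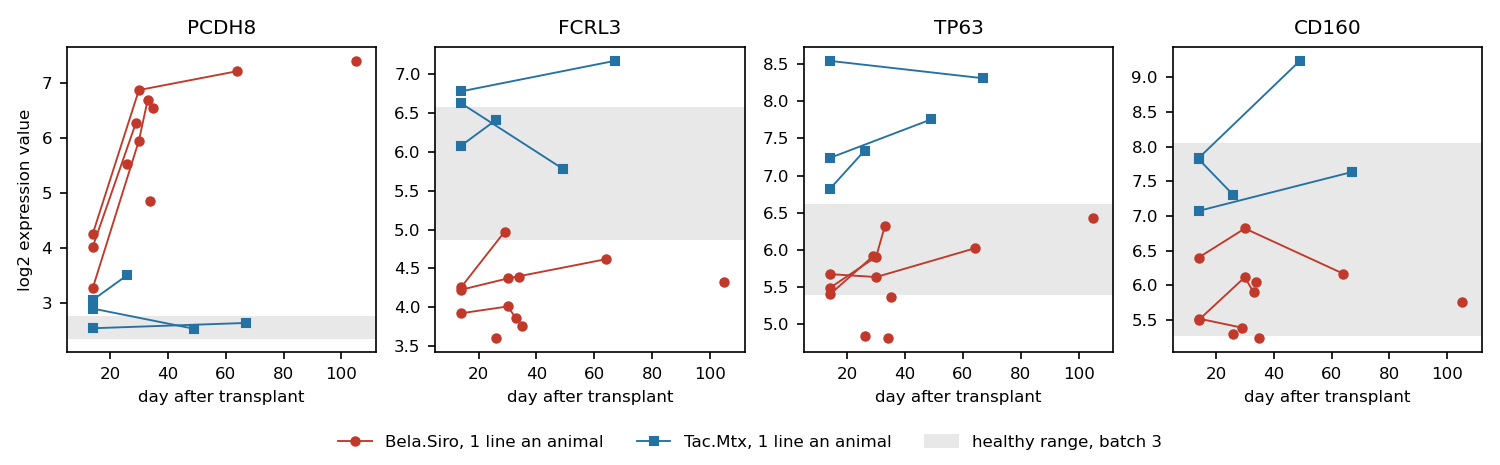
Log2 expression value by day after transplant for the 4 genes called late, with 1 line an animal, Bela.Siro animals in red and Tac.Mtx animals in blue, and the grey band as the range of healthy arrays of batch 3. PCDH8 runs from 3.27 to 4.26 at day 14 and from 4.87 to 7.41 late in Bela.Siro animals, while FCRL3, TP63 and CD160 keep the regimens apart at both times.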

How the data were processed

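RNA of sorted T cells had been labelled from the 3-prime end and hybridised to Affymetrix rhesus arrays. The values deposited by the authors are on a log2 scale, and the submitters' processing notes name RMA and affy without versions. An F test for batch across healthy arrays gave a p under 0.05 for 0.274% of probe sets and above 0.95 for 24.9%. Whether batch was adjusted before deposition is not given in the sources used here. The 2 arrays of 1 healthy animal were averaged, which left 101. A probe set was kept where 3 or more arrays reached 5.21, the overall median, without 99 control probe sets. Gene names came from the platform annotation (24969 single-gene probe sets, 24629 with an identifier in RefSeq). Each gene was represented by its brightest single-gene probe set, and families prone to cross-hybridization were not named. All 16 groups were fitted together in limma 3.58.1 (R 4.3.3, with the data.table package, 1.17.8) with the labelled batch as a factor (80 residual and 3.38 prior degrees of freedom). Genes were named as the 12 largest differences in each direction at an unadjusted p under 0.01 without overlap, since none passed, plus a fixed set and list members. The comparison, the lists and the rules were chosen with earlier results of these data known. The fit was tested on simulated data. The number of arrays limits precision. Alternatives changed the filter, batch term, arrays, prior, weights, normalization, fold minimum, actin covariate, animal block and probe set choice.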

Additional observations from a re-analysis of the deposited data

Results flagged for a closer look

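PCDH8 was singled out because its difference between the regimens was not the same at both times by a direct test. The day-14 difference minus the late one was -2.46 (limma, adjusted p 0.0209). Within the 6 animals sampled at both times it was -2.82 (limma, interval -3.63 to -2.01). Its adjusted p there was 0.83 (limma), the smallest of all probe sets. The regimens differed with the same sign at both times. PCDH8 passed the filter on low values mostly through Bela.Siro arrays after day 14. SOCS3 was singled out because 1 array stood apart within the 7 arrays of Bela.Siro.F: R.42 had 6.55 at day 33, against 5.66 in the next highest array, a gap of 0.591 of the range where 0.568 is the limit. This check ran on the 24 genes with the largest day-14 differences, and chance marks about 1 in 20.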

How the results depend on the processing

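The count of 0 called probe sets between Bela.Siro.D14 and Tac.Mtx.D14 held under every alternative run, except that leaving out 1 array gave 0 to 1. The 1 probe set, called without R.38, has no gene name and differed by -2.65 (adjusted p 0.00311). No listed gene was called under any alternative. The number of genes at an unadjusted p under 0.05 was 933 in the fit on the 6 arrays and 1140 without R.19, and further quantile normalization gave 1340, 64.9% of them higher, against 68.1% as reported. At a fold of at least 2 it was 92, with 11 higher and 81 lower. Against healthy animals, Bela.Siro.D14 had 1444 calls with the actin covariate, 447 with array weights, 249 at a fold of at least 2 and 71 to 562 with 1 array left out. Tac.Mtx.D14 had 1305 with array weights, 472 with only the groups compared, 125 at a fold of at least 2 and 89 to 416 with 1 array left out. The late comparison had 5460 calls with array weights, 411 with no filter, 279 at a fold of at least 2 and 63 to 1069 with 1 array left out. The difference between the times had 3 calls with array weights, 0 with only the groups compared, only the batch, only arrays after a transplant, the within-animal comparison or a stricter filter, which removed PCDH8, and 0 to 2 with 1 array left out. The cause of the other changes was not tested. Fitting the animal as a random block (correlation 0.11) moved no count of calls by over 1.5 times. No paired analysis was possible because the regimens were given to different animals at day 14. Pairing the times within 6 animals, as a replicate block, gave 0 calls. With 3 arrays a group, the number of arrays limits every interval, and several list medians moved by over 1.5 times when 1 array was left out.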
